A study of Mus musculus with 6 samples.

Results

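The H3K27ac landscape of detrained quadriceps is the list of 40721 acetylated regions (peaks) found in the thigh muscle of mice that had run on wheels and then rested for 72 hours. Every peak of that list was taken, 40721 of the 87709 peaks in the series, the other 46988 being those of the control mice. Each peak carries its position, its nearest gene, a Peak Score pooled over both H3K27ac libraries, and a log2 value in each of those libraries and in the input, the unprecipitated chromatin sequenced alongside. The question was which genes held the strongest, the longest and the most numerous peaks once running had stopped.

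The mice were wild type and labelled C57BL/6. By the study's methods they were males that had free access to wheels from 8 weeks of age for 4 weeks and were taken 72 hours after their last bout. Control mice of the same genotype and strain label had no wheel. Each H3K27ac library was made from 1 quadriceps, so the 2 detrained libraries stand for 2 samples, and their spread includes the animal and the library together. A single input served both, and its strain is spelled C57BL/8 in its label, where the antibody is listed too although an input has none. The libraries held 20805019 tags (replicate 1), 22350779 tags (replicate 2) and 21298438 tags (input). Quadriceps is whole tissue, and its nuclei include those of vessels, connective tissue and satellite cells beside those of the fibres.

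Acetylation of lysine 27 on histone H3 is placed by the coactivators p300 and CBP at active promoters and enhancers and is removed by histone deacetylases. Narrow peaks commonly sit at start sites, and broad stretches of the mark occur around genes of cell identity and around genes that respond to hormones or activity. In limb muscle of the mouse most fibres are fast, and their contractile genes are marked accordingly.

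The promoters of Dbp, Per1, Klf9, Atp2a1, Acta1 and Myh4 are shown first because each lies wholly inside a peak described below and together they cover clock genes, Klf9 and contractile genes. Each runs from 250 bases before to 50 bases after the annotated start, 5′ to 3′ on the gene's strand, from RefSeq on GRCm38.p6, the assembly called mm10 in the file headers. Capitals mark matches, on either strand, to the GC box GGGCGG, the CCAAT box, the myogenic E-box CAGCTG, the clock E-box CACGTG, the TATA box TATAAA, the AP-1 letters TGANTCA, the hormone receptor letters ACANNNTGT, the heat shock letters GAANNTTC, the CArG box and the MEF2 site. Where matches overlap, as the adjacent CCAAT matches do at Klf9, they run together in capitals.
Dbp, chr7:45704997-45705296, plus strand: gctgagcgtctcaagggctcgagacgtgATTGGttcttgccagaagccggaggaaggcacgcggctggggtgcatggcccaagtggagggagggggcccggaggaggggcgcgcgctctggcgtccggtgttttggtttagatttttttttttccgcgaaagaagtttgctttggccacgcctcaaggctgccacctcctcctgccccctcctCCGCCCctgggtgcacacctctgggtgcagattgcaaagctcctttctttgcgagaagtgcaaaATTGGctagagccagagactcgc
Per1, chr11:69098699-69098998, plus strand: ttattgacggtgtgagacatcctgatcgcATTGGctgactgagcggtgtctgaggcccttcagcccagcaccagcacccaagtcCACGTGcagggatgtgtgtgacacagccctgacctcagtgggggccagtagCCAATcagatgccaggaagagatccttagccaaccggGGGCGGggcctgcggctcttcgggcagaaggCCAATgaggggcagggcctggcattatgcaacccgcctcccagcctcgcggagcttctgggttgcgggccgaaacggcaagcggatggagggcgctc
Klf9, chr19:23140976-23141275, plus strand: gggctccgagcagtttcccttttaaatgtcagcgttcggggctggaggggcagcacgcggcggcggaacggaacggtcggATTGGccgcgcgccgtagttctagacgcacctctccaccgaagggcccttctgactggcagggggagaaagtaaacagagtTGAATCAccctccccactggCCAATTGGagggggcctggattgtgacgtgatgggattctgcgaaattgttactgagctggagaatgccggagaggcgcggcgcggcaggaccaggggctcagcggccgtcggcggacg
Atp2a1, chr7:126463024-126463323, minus strand: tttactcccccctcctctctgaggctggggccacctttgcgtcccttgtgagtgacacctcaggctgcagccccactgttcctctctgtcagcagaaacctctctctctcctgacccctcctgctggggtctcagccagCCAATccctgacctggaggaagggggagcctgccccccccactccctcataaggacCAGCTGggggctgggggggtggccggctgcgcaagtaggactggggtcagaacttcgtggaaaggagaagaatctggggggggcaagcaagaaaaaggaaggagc
Acta1, chr8:123894726-123895025, minus strand: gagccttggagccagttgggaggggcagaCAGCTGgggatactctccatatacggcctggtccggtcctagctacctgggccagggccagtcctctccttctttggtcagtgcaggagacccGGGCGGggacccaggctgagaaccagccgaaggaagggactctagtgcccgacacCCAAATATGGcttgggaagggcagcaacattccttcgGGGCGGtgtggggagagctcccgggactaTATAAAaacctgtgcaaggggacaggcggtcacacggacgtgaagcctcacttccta
Myh4, chr11:67237562-67237861, plus strand: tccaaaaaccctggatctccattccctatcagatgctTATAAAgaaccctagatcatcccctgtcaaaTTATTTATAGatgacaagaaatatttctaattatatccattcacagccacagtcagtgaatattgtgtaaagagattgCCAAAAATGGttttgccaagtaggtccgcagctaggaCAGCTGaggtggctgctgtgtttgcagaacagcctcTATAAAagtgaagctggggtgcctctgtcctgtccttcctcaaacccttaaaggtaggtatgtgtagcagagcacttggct

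The Per1 window held CACGTG, the E-box read by clock factors, 166 bases upstream of the start. RefSeq lists another Per1 start inside the same peak, and its window held no CACGTG, nor did that of Dbp. The Myh4 window held a CArG box 104 bases upstream, a MEF2 site 182 bases upstream and TATAAA 31 bases upstream. The Acta1 window held a CArG box 73 bases upstream. Over all 32851 RefSeq promoters, 7.15% held CACGTG, 1.63% a CArG box, 3.19% a MEF2 site, 13.6% TATAAA, 35.7% GGGCGG, 37.4% CCAAT, 16.3% CAGCTG, 7.81% TGANTCA, 6.85% ACANNNTGT and 7.86% GAANNTTC. Of these promoters, 11916 (36.3%) lay wholly inside a peak of the detrained quadriceps. Those promoters had a median GC content of 61.3% and held GGGCGG in 61.7% and TATAAA in 6.91%, against 49% GC, 20.8% and 17.4% in the 20935 promoters not wholly inside one. A MEF2 site was held by 2.02% of the promoters inside a peak, against 3.85% of those not wholly inside one, by 3.05% of the 3377 inside a strong peak and by 9 of the 119 inside the 100 strongest peaks (7.56%). A CArG box was held by 1.35%, 1.79% and 1.81% of these and by 5 of the 119 (4.20%), and CACGTG by 9.81%, 5.64% and 10.04% and by 8 of the 119 (6.72%). These are matches to letters and not measured binding.

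The peaks covered 100.3 Mb, or 3.68% of the assembled chromosomes, and held 45.8% of the pooled tags. The Peak Score, the pooled tags in a peak per 10000000 sequenced, had a median of 57.9, with quartiles of 25.5 and 131.2 and a range from 4.4 to 6609.5. The median peak thus rested on 250 pooled tags, a counting error of 6.33%, and the weakest peak on 19.0 tags, a counting error of 22.9%. These errors cover counting only. The 407 peaks of the top 1% held 11.2% of all tags in peaks, and 5324 peaks (13.1%) sufficed for 50% of them.

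The 2 libraries ranked the peaks alike. Over the 40721 peaks Spearman's rho between their log2 values was 0.987, a description in which the points share peak length and the regions were chosen on the pooled libraries. Replicate 1 was higher than replicate 2 at 59.0% of peaks, the median difference was 0.05 log2, and 92.7% of peaks differed by less than 0.5 log2. The SD between the libraries had a median of 0.12 log2 (n = 2). It was 0.16 in the 25% of peaks with the lowest scores and 0.08 in the 25% with the highest. Differences of at least 1 log2 occurred at 72 peaks, 38 with replicate 1 higher and 34 with replicate 2 higher.

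Height over the input was taken as the log2 value of H3K27ac minus that of the input. Its mean over both libraries had a median of 2.20 and ran from 1.48 to 4.47, so no peak fell near the input, as the authors had kept only regions that exceeded it. A peak was called strong where both libraries were at least 3 log2 above the input, written here as 8-fold. The transform behind the deposited log2 values is not given in the sources used here and was not checked at the low values of the input, so folds are on the scale of the deposited values and may differ from folds of tags. There were 3892 strong peaks, 9.56% of all, and 3349 of the 14382 genes (23.3%) had at least 1. Because the list itself was selected against the input, this is a description of the list and was not tested.

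Peaks were mostly found away from start sites, but the peaks at start sites were higher. Introns held 19994 peaks (49.1%), intergenic sequence 12439 (30.5%), promoters 5114 (12.6%), exons 1235, 5′ untranslated exons 732, transcript ends 557, 3′ untranslated exons 409 and non-coding exons 241. The median height over input in promoter peaks was 2.68 in replicate 1 and 2.57 in replicate 2, against 2.19 and 2.16 in introns and 2.14 and 2.12 between genes. Strong peaks made up 21.8% of promoter peaks, 24.7% of 5′ untranslated peaks, 7.65% of intron peaks and 5.87% of intergenic peaks, beside 9.56% over the whole list. Promoter and intron peaks had nearly the same median length, 1859 and 1841 bp, yet a median Peak Score per kb of 61.2 against 28.1.

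**Figure D1:**
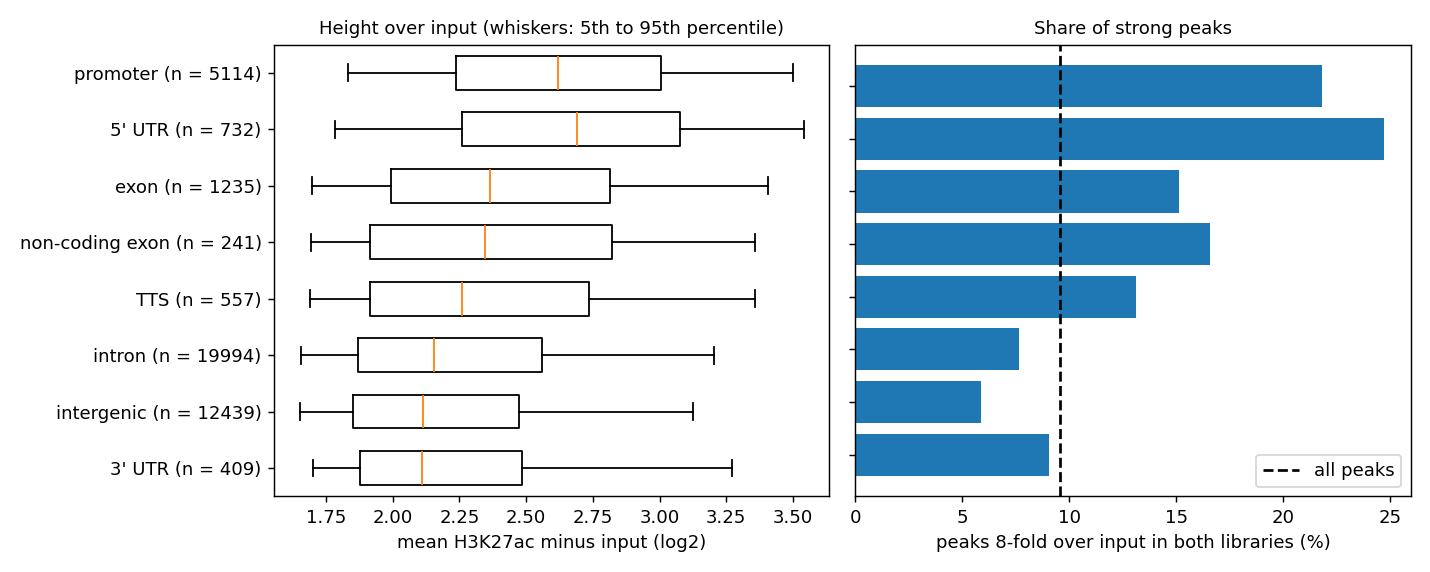
Left, mean H3K27ac minus input (log2) of the detrained peaks by annotation class, as boxes of the quartiles with the median as a line and whiskers from the 5th to the 95th percentile over peaks. Right, the percentage of each class that was at least 8-fold over input in both libraries, with the 9.56% of all peaks as the dashed line; promoter and 5′ untranslated peaks lie above it and intron and intergenic peaks below.

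Distance from the start site gave the same order. The 9532 peaks within 1 kb of a start site had a median score of 111.8 and were strong in 20.8% of cases. Of the 4299 peaks more than 100 kb away, 2.91% were strong and the median score was 38.9. Peaks of 10 kb and longer were most frequent at 1 to 10 kb from the start, where they made up 3.91% of 7771 peaks, against 0.66% of peaks within 1 kb. By chromosome, peaks were densest on chromosome 11, with 24.6 per Mb, and on the autosomes sparsest on chromosome 14, with 12.2 per Mb. Chromosome X held 5.41 per Mb.

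The strongest peaks by pooled tags lay at Neat1, Zbtb16, Tob2, Nfic and Klf9. The first, at chr19:5797197-5852585, was named for Neat1, the long RNA that builds paraspeckles, and also reached Malat1, the abundant nuclear-speckle RNA, and Frmd8. Its score was 6609.5, and its log2 values were 10.24 in the input, 13.83 in replicate 1 and 13.72 in replicate 2. The second, chr9:48704575-48754845, centred in intron 3 of Zbtb16, a zinc-finger transcription factor, scored 5975.8, with 9.85 in the input, 13.57 in replicate 1 and 13.67 in replicate 2. In both peaks the 2 libraries lay close to each other and more than 3 log2 above the input.

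The third peak covered the whole of Tob2, a protein of the antiproliferative BTG/Tob family, and scored 4015.9, with log2 values of 9.27 in the input, 13.06 in replicate 1 and 13.04 in replicate 2. The fourth, named for Mir1191b, was centred in intron 2 of Nfic, a nuclear factor I gene, and scored 3889.9. The fifth, over the whole start of Klf9, a Krüppel-like transcription factor, scored 3574.3 in 23571 bp, with 8.92 in the input, 12.89 in replicate 1 and 12.88 in replicate 2. It contains the Klf9 promoter printed above. The remaining 5 of the first 10 were named for Mcl1, which protects cells from apoptosis, with 3343.0, Cuedc1 with 3265.1, Rcsd1, which encodes a protein that binds the actin capping protein, with 3083.9, Lsp1 with 2916.9 and E030018B13Rik with 2890.2.

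Names by nearest start site hid other genes under some of these peaks. The Lsp1 peak, chr7:142469842-142503586, also covered part of Tnnt3, the fast-fibre troponin T, which had no peak under its own name. The log2 values there were 8.91 in the input, 12.59 in replicate 1 and 12.59 in replicate 2. The E030018B13Rik peak was centred in the intron of Klf13, another Krüppel-like factor, and the eleventh peak, named for Mir1904 with a score of 2874.5, lay over Pde4d, a cyclic AMP phosphodiesterase.

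**Figure D2:**
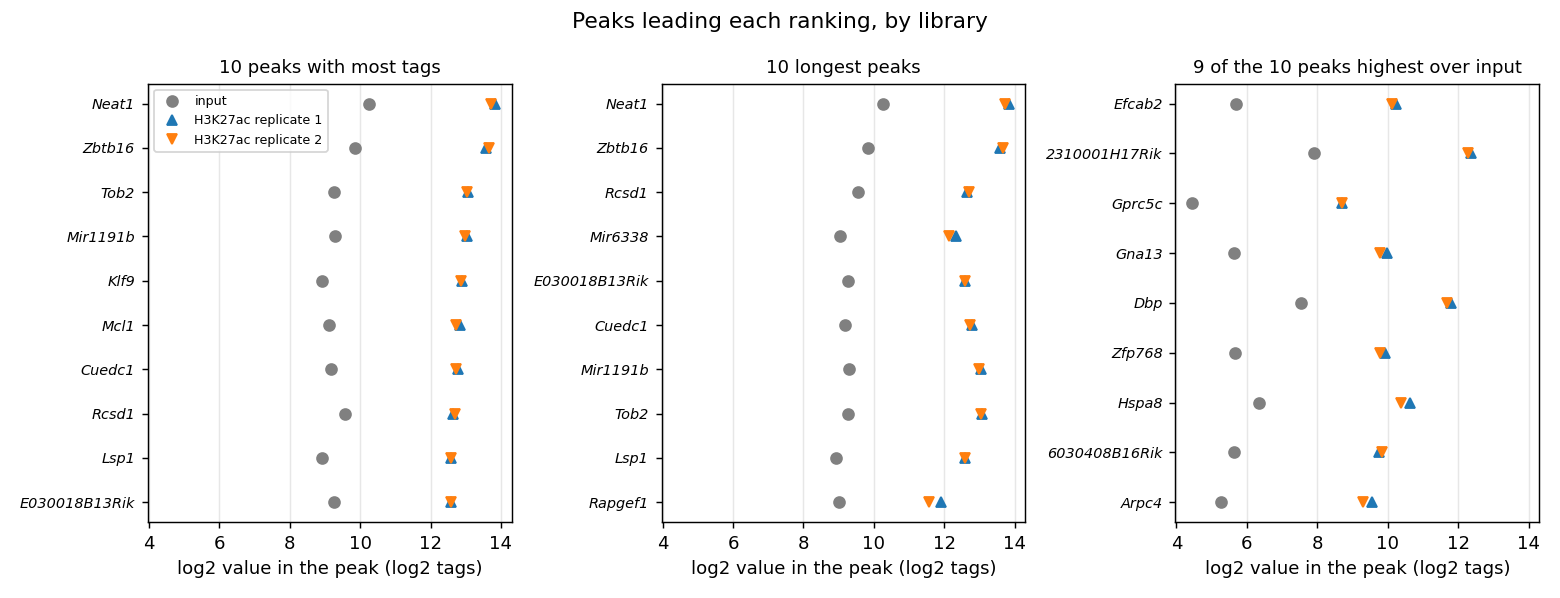
Log2 values of the input (grey circles), H3K27ac replicate 1 (blue triangles) and H3K27ac replicate 2 (orange triangles) for the 10 peaks with most tags, the 10 longest and 9 of the 10 highest over input, each named for its nearest gene. The H3K27ac points of a peak nearly coincide and stand to the right of its input point in every row; the longest peaks have high inputs, up to 10.24 at Neat1, and the peaks highest over input have lower ones, down to 4.44 at Gprc5c.

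The longest peaks were largely the strongest. Length ran from 500 to 55388 bp with a median of 1798 bp; 3721 peaks (9.14%) reached 5 kb, 641 (1.57%) reached 10 kb and 64 reached 20 kb. The 641 peaks of 10 kb and longer belonged to 575 genes and held 13.2% of the tags in peaks. After Neat1 (55388 bp) and Zbtb16 (50270 bp) came Rcsd1 (49146 bp), Mir6338 (39657 bp, over the whole of Smtnl2, a smoothelin-like gene), E030018B13Rik (38251 bp), Cuedc1 (37941 bp), Mir1191b (35209 bp), Tob2 (34534 bp), Lsp1 (33744 bp) and Rapgef1 (31726 bp, an exchange factor for Rap1). Of the first 10 by length 8 were also among the first 10 by tags. The Rapgef1 peak, absent from the first 10 by tags, scored 1610.4 and had 9.01 in the input, 11.91 in replicate 1 and 11.56 in replicate 2. Across all peaks length and score had a Spearman's rho of 0.873, and length enters the score directly.

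**Figure D3:**
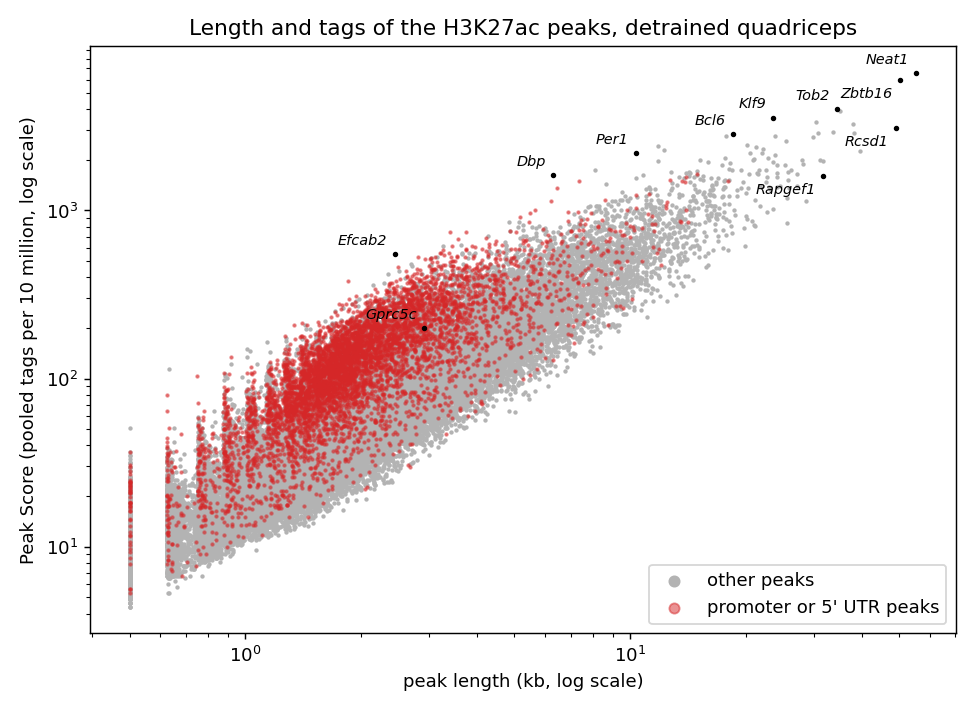
Peak length (kb) against Peak Score (pooled tags per 10000000) for the 40721 peaks, both axes logarithmic, with promoter and 5′ untranslated peaks in red and all others in grey, and selected peaks as black points with their gene. Score rises with length; Neat1 and Zbtb16 lie at the upper right, while Dbp (6296 bp, score 1619.5) and Efcab2 (2445 bp, score 550.1) lie at the upper edge for their length.

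Ranking by height over input brought up other peaks, shorter and nearer to start sites. None of the first 10 by tags was among the first 10 by height, and of the 100 highest over input 64 lay within 1 kb of a start site, against 14 of the 100 with most tags. The median length was 4583 bp in the 100 highest and 18944 bp in the 100 with most tags. First was Efcab2, an EF-hand gene, at chr1:178404913-178407358, with log2 values of 5.70 in the input, 10.22 in replicate 1 and 10.12 in replicate 2. The non-coding 2310001H17Rik was second, with 7.92, 12.36 and 12.29 in the same order. Both H3K27ac libraries exceeded 16-fold over input in each of these peaks.

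Gprc5c, an orphan receptor, also ranked among the first 10, with a peak at -13814 bp from its start and values of 4.44 in the input, 8.69 in replicate 1 and 8.69 in replicate 2. Gna13, a G protein alpha subunit, stood 4.32 and 4.13 log2 over input in replicates 1 and 2. Dbp, a transcription factor that relays the circadian clock, stood 4.26 and 4.15 over input, from 7.53 in the input, 11.79 in replicate 1 and 11.69 in replicate 2. The last 4 were Zfp768, a zinc-finger gene, Hspa8, the constitutive Hsp70 chaperone, 6030408B16Rik and Arpc4, a subunit of the actin-nucleating Arp2/3 complex, at 4.02 to 4.29 log2 over input in either library.

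Per kb of peak, Dbp was the densest of all with 257 pooled tags per 10000000, followed by Efcab2 with 225.0, Cox20, an assembly factor of cytochrome c oxidase, with 218.0. Per1, a repressor of the clock, was among the first 5 with 213. The Dbp and Per1 promoters printed above lie inside these peaks. Per1 had log2 values of 8.13 in the input, 12.20 in replicate 1 and 12.17 in replicate 2.

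The genes with the most peaks differed from those with the strongest, and 21 of the 324 peaks of the first 10 (6.48%, beside 9.56% over all peaks) were strong. The 40713 named peaks fell to 14382 genes, a median of 2 each. A single peak was assigned to 6549 genes (45.5%), while 594 genes (4.13%) had 10 or more and together held 20.02% of named peaks. The first was the non-coding 9430078K24Rik with 49 peaks spread over 413 kb, of which 27 lay on Rad51b, a DNA repair gene, and 4 were strong. Their scores ran from 5.33 to 591.1 with a median of 84.3. This order rests on naming by the nearest start site. Counted on the RefSeq span, Arhgap26 came first with 66 peaks and Rora second with 54, while 9430078K24Rik had 3 and Plpp3 had 9.

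Plpp3, a lipid phosphatase, followed with 34 peaks over 486 kb and a median score of 69.2. Nfia, a nuclear factor I gene, had 33 peaks with scores up to 1079.1, and Dlc1, a GTPase-activating protein, had 33, none of them strong. Rora, a nuclear receptor of the clock, had 32, Tns3, a tensin of cell adhesions, had 31, and Sgms1 (sphingomyelin synthesis), Nr3c1 (the glucocorticoid receptor), Ptprg (a receptor phosphatase) and Bcor (a corepressor that binds BCL6) had 28 each. Bcor had 6 strong peaks, the most of these 10 genes. Of the 28 Nr3c1 peaks 17 lay on the neighbouring Arhgap26. The RefSeq span of genes with 10 or more peaks had a median of 106 kb, against 21.5 kb over all genes with a peak and a match, and over those 14089 genes Spearman's rho between peak number and span was 0.286.

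**Figure D4:**
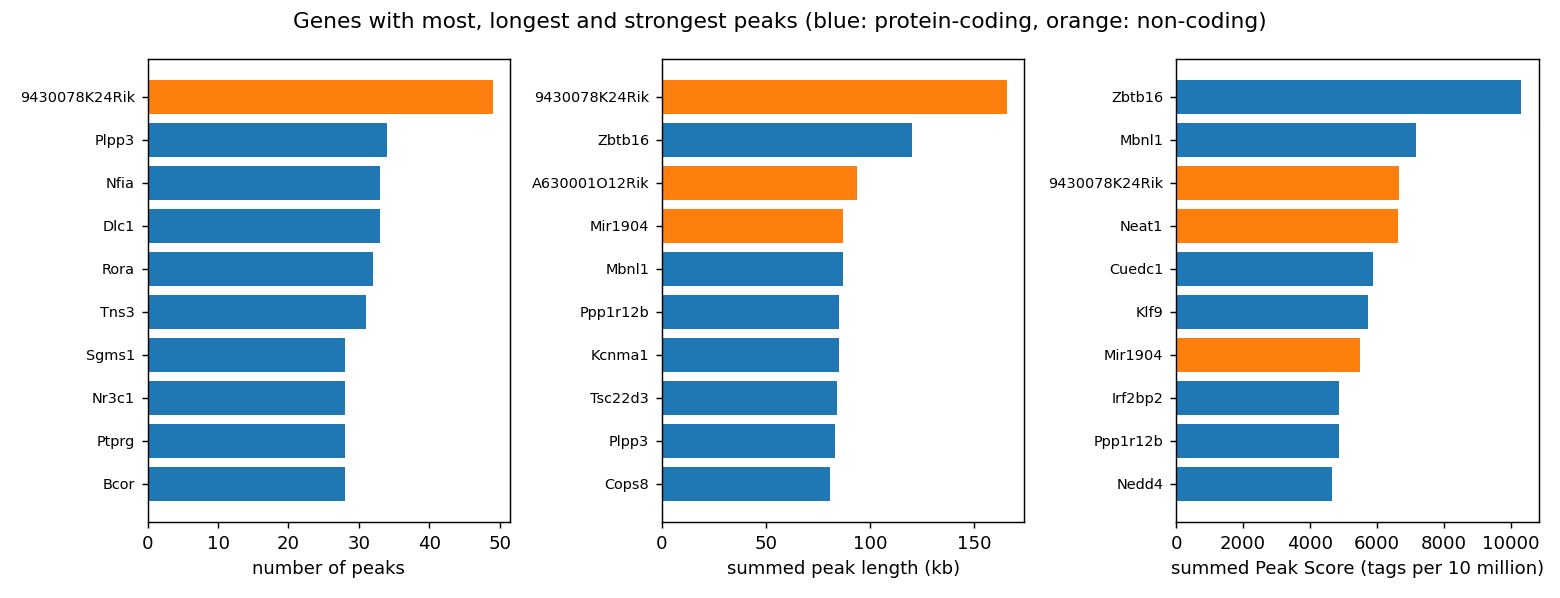
The 10 genes with the most peaks, the longest summed peak length (kb) and the highest summed Peak Score (pooled tags per 10000000), peaks assigned to the nearest start site. 9430078K24Rik leads by number (49) and length, and Zbtb16 leads by summed score (10308.7); protein-coding genes are blue and non-coding genes orange.

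Summing the score over all peaks of a gene gave another order, in which 4 of the first 20 genes by number were among the first 20. Zbtb16 came first with 10308.7 over 9 peaks, of which its strongest gave 5975.8. Mbnl1, a splicing regulator of muscle, had 7149.5 over 16 peaks, 9430078K24Rik 6642.2 over 49, Neat1 6609.5 in 1 and Cuedc1 5875.2 over 6. Klf9 had 5740.0 over 13 peaks, Mir1904 5478.7 over 22 (20 of them on Pde4d), Irf2bp2, a transcriptional corepressor, 4861.9 over 18, Ppp1r12b, a subunit of myosin phosphatase, 4855.5 over 15 and Nedd4, a ubiquitin ligase, 4662.3 over 17. The median gene had a summed score of 163.6.

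Among 340 genes in 24 lists, genes of the fast fibre and of its fuel use carried more of the mark than the median gene, and the slow fibre list lay near the values over all genes. Of the 14 fast contractile genes 14 had a peak on their RefSeq span, with a median summed score of 847 there, and 11 had a strong peak under their name, beside 23.3% of all genes with a peak. The median over 21900 protein-coding genes was 56.3, and 58.8% of these had a peak on their span. Of the 11 slow contractile genes 6 had a peak on their span, the median was 36.4, and none of the 7 with a peak by name had a strong one. In whole tissue, fewer cells of a type and less acetylation per cell cannot be told apart.

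In the fast list Myl1, the fast myosin light chain, had a summed score of 1988 over 7 peaks, Tpm1 (tropomyosin) 1809.1 over 6, Atp2a1, the calcium pump of the fast sarcoplasmic reticulum, 1704.3 in 1 and Pvalb, the calcium buffer parvalbumin, 1048.1 over 3. The Atp2a1 peak of 12790 bp had log2 values of 7.72 in the input, 11.84 in replicate 1 and 11.79 in replicate 2. Myh4, the myosin heavy chain of type 2B fibres, had 1 peak of 10265 bp with 7.33 in the input, 10.75 in replicate 1 and 10.70 in replicate 2. Myh1, the type 2X heavy chain, had 1 of 12844 bp with 7.43, 10.24 and 10.02, and the strongest of 5 Myh2 (type 2A) peaks had 5.20, 7.40 and 7.52. Height over input thus fell in the order Myh4, Myh1, Myh2 in both libraries, and the steps between them were larger than the difference between the libraries. The last step depends on naming by the nearest start site, since the best peak on the Myh2 span is the Myh1 peak, and the Myh2 peak used here lay at -7066 bp from its start.

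In the slow list Myh7, the slow heavy chain, Myh7b, Tnni1 and Tnnc1, slow troponins, had no peak by name or span. Mybpc1, slow myosin-binding protein C, led with 952.8 over 6 peaks and its best peak had 7.04 in the input, 9.84 in replicate 1 and 9.78 in replicate 2. Atp2a2, the slow calcium pump, had 551.7, Casq2 179.4 and Tpm3 173.1. The gene Ngdn, a neighbour of the cardiac and slow myosin pair, had 1 peak with 5.76 in the input, 8.32 in replicate 1 and 8.24 in replicate 2, so the sequence beside that pair was marked while both myosins were not.

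Scaffold genes of the sarcomere had a peak on their span in 22 of 23 cases and a strong peak in 18, where 23.3% of all genes with a peak had a strong one. Myot (myotilin) led with 2454.2, followed by Ttn (titin) with 1853.0, Myom1 with 1790.2 and Myom2 with 1577, both of the M band. Cryab, a small heat shock protein, had no peak by name. Acta1, skeletal actin, had 5 peaks, and the strongest had 7.06 in the input, 10.57 in replicate 1 and 10.40 in replicate 2. Of the 17 genes of excitation-contraction coupling 12 had a strong peak. The highest summed scores of that list were at the junctophilins, Jph1 with 2789.8 and Jph2 with 2765.1, which hold the calcium store to the outer membrane, then the store-operated channel Orai1 with 1365.2 and its sensor Stim1 with 1343.6, which had no strong peak. Of the 15 genes of the dystrophin complex and membrane 8 had a strong peak. By summed score Sspn came first with 1417.2, then Dysf, which had no strong peak, with 1378.0 and Capn3 with 1314.6.

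Glycogen and glycolysis was the list with the highest share of strong peaks, 27 of its 55 (49.1%, beside 9.56% over all peaks), and 17 of its 19 genes had at least 1, beside 23.3% of all genes with a peak. Hk2, which phosphorylates glucose on entry, led with 3126.6, and its 29839 bp peak had 8.92 in the input, 12.52 in replicate 1 and 12.49 in replicate 2. Ugp2, of glycogen synthesis, had 1996.5 and Pfkm, muscle phosphofructokinase, 1895.7. In the list of mitochondria and fatty acid use 18 of 30 genes had a strong peak, beside the same 23.3%, and the median span score was 330, beside 56.3 over all protein-coding genes. By summed score the fatty acid transporter Cd36 came first with 1838.1 and no strong peak, followed by lipoprotein lipase Lpl with 1607.6, myoglobin Mb with 1382.6 and the nucleotide carrier Slc25a4 with 1082.1. Atp5a1, Cycs and Hadha had a peak on their span but none by name.

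Most regulatory genes carried a peak. Of 19 clock genes 19 had a peak on their span, with a median score of 999, beside 58.8% and 56.3 over all protein-coding genes. A strong peak was held by 12 of them, and 23.3% of all genes with a peak held one. Nr1d1, a repressor of the clock, led with 3323.1 over 2 peaks, then Rora with 3013.3, Per1 with 2199.5 and Bhlhe41 with 1834.0, while Bhlhe40 had none by name. Of 21 myogenic transcription factors 12 had a strong peak, beside the same 23.3%. The summed score was highest at Mef2d with 3099.2, Tead1 with 2640.9 and Sox6 with 2498.4. None of the 17 peaks named for Sox6 was strong. The best peak on the Sox6 span, named for Sox6os, was strong, at 3.95 and 3.81 log2 over input in replicates 1 and 2. Mef2b had no peak by name or span. The strongest Mef2d peak had 8.47 in the input, 12.59 in replicate 1 and 12.45 in replicate 2.

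Of 25 exercise coactivators and nuclear receptors 25 had a peak by name, beside 55.9% of all protein-coding genes. A strong one was held by 14, beside 23.3% of all genes with a peak. By summed score Rxra led with 2426.8, then Tfeb with 2050.0, Nr4a1 with 1641.3 and Prkaa2, a catalytic subunit of AMP-activated kinase, with 1494.3. Immediate early genes had a strong peak in 13 of 20 cases, led by Jun with 3776.6, Dusp1 with 3495.5, Fosl2 with 2549.9 and Fos with 2067.2, and Fosl1 had no peak by name. Genes of atrophy and insulin signalling had one in 15 of 23 cases. The highest summed scores there were at Tbc1d1 with 3287.9, although none of its 18 peaks was strong, Ddit4 with 2362, Pik3r1 with 2349.2 and Fbxo31 with 1577.1. Genes of the neuromuscular junction, used mainly by the few nuclei under the nerve ending, had a strong peak in 1 of 13, Rapsn. Musk led there with 1063.9, then Dok7 with 535.0, Lrp4 with 439.8 and Rapsn with 246, and the receptor subunits Chrna1, Chrnd and Chrng had no peak. Housekeeping genes had a strong peak in 5 of 12 cases, among them Actb with a summed score of 1730.3, while the list also held Ywhaz with 1242.9 and Rplp0 with 856.2, and Tbp and Rps18 had none by name.

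**Figure D5:**
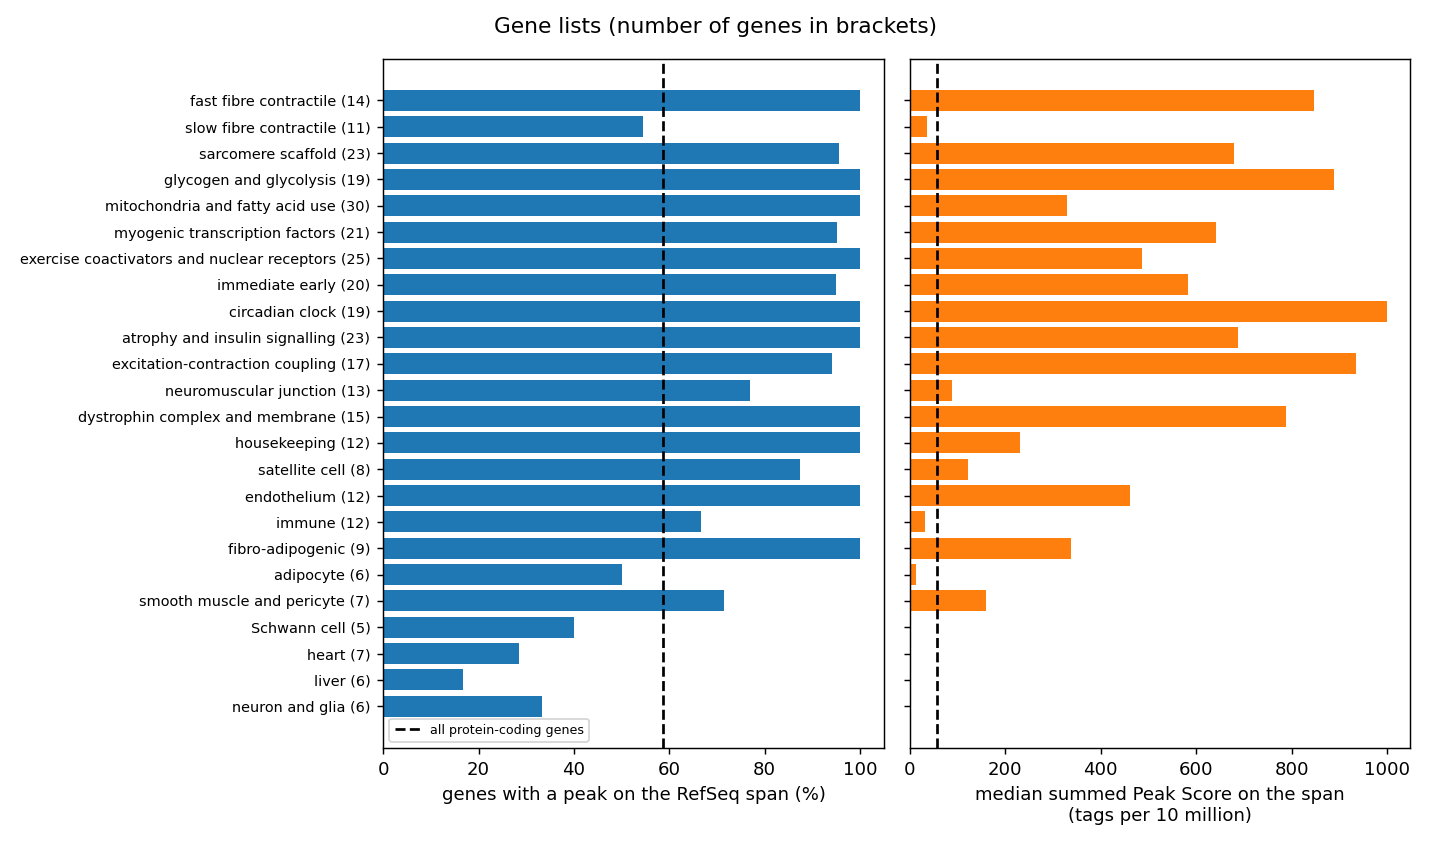
For each gene list, the percentage of genes with a peak on their RefSeq span (left, blue) and the median over genes of the summed Peak Score on the span (right, orange, pooled tags per 10000000), the number of genes in brackets and the value over all protein-coding genes (58.8% and 56.3) as dashed lines. Lists of the fast fibre, its fuel use, its calcium handling and the clock reach medians of 847 to 999, and the slow fibre list lies at 36.4; the medians of the Schwann cell, heart, liver and neuron lists are 0.

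Markers of other cells in the muscle carried peaks too, as did 58.8% of all protein-coding genes on their span. Leading genes below are by summed score over the peaks named for them. Strong ones were 2 of the 69 endothelial peaks (2.90%), 3 of 51 fibro-adipogenic (5.88%), 2 of 29 satellite cell (6.90%), 1 of 13 immune (7.69%) and none of the adipocyte, smooth muscle and Schwann cell peaks, beside 9.56% over all peaks. The median span score was 462 for the endothelial list and 339 for the fibro-adipogenic list, above the mitochondrial list, and lower for the other lists of such cells. Endothelial genes had a peak on their span in 12 of 12 cases, led by Erg with 1353.2, Flt1 with 1148.1, Egfl7 with 1006.6 and Kdr with 843.1. Fibro-adipogenic genes had one in 9 of 9, led by the collagens Col1a2 with 1090.3 and Col3a1 with 1047.3, then Dpt with 969.4 and Dcn with 850.2. Satellite cell genes had one in 7 of 8, led by Sdc4 with 836.0, Cdh15 with 715.2, Spry1 with 564.5 and Fgfr4 with 270.2, and Calcr had none. The median span score of that list was 123. The best peak on the span scored 91.5 at Pax7, 58.9 at Cdh15 and 51.2 at Vcam1. Smooth muscle and pericyte genes had a peak on their span in 5 of 7 (71.4%, beside 58.8%). Pdgfrb led with 682.6, then Cspg4 with 501.0, Rgs5 with 193 and Myh11 with 157.2, and Tagln had none. Immune genes had a peak on their span in 8 of 12 (66.7%, beside 58.8%). By name Spi1 led with 608.5, then Csf1r with 114.5, Lyz2 with 74.6 and Adgre1 with 66.5, the last with no peak on its span. Cd4 and Cd8a had none by name or span, and Cd68 and Cd79a none by name. The best peak on the Cd68 span, named for Mir1934, scored 368.4.

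Adipocyte genes had a peak on their span in 3 of 6 cases and Schwann cell genes in 2 of 5, beside 58.8% of all protein-coding genes. In the adipocyte list Fabp4 had 518.3 and Pparg 344.0, with none at Adipoq, Cidec and Lep, and none by name at Plin1. In the Schwann cell list Mbp had 351, and Sox10 and Ngfr had none. By the share of genes with a peak on the span, genes of other tissues were marked least. By name the heart list (42.9%) lay above the adipocyte (33.3%) and Schwann cell (40%) lists. In the heart list the summed score by name was 275.1 at Tbx5, 63.5 at Hcn4 and 23.4 at Nppb. Nppb had no peak on its span, and Myh6, Nppa, Nkx2-5 and Gata4 had no peak. In the liver list Apoa1 had 375.4 and Cyp7a1 113.8 by name, neither with a peak on its span. Alb, Ttr and Cps1 had no peak and Hnf4a none by name. In the neuron and glia list Rbfox3 had 47.0, and Neurod1, Gfap, Slc17a7 and Gad1 had none and Syn1 none by name. No gene of the heart, liver and neuron lists had a strong peak. These lists held 7, 7 and 1 peaks, and 9.56% of all peaks were strong. With so few peaks, their lack of strong ones cannot be told apart from that share.

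At endothelial genes the 2 libraries stood apart more than over the whole list. Replicate 1 was higher at 61 of the 69 endothelial peaks (88.4%), with a median difference of 0.41 log2, against 59.0% and 0.05 over all peaks and 63.6% and 0.05 over the 33 fast contractile peaks. At Egfl7 the log2 values were 7.47 in the input, 11.11 in replicate 1 and 10.57 in replicate 2, and at the strongest Cdh5 (VE-cadherin) peak they were 6.62, 9.57 and 8.85. The adipocyte list had 7 peaks and replicate 1 was higher at all 7, with a median of 0.38 log2. Of the 13 immune peaks replicate 1 was higher at 11 (0.16 log2), and of the 7 heart peaks at 2 (-0.26 log2). Of the 27 housekeeping peaks replicate 1 was higher at 20 (0.16 log2), and of the 129 immediate early peaks at 82 (0.13 log2). The median of the other lists lay between -0.04 and 0.10 log2, apart from the single neuron peak at -0.26. Levels given above for the endothelial, adipocyte, immune, heart, housekeeping and immediate early lists rest on libraries that differed there by more than over all peaks, and the part of cell make-up in this was not tested.

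The peaks were set against 324 super-enhancer positions listed by the study for quadriceps from other libraries. Of the 100 strongest peaks 19% overlapped such a position and of the 100 longest 21%, beside 4.02% of all 40721 peaks. With the positions called from H3K27ac alone these shares were 9% and 21%, beside 5.83% of all peaks, so the share of the strongest peaks depends on the list used. Longer peaks have more bases with which to overlap, and no allowance was made for that. The Klf9, Tob2, Neat1 and Rcsd1 peaks overlapped one, and the Zbtb16 peak did not.

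Genes that ranked high in detrained muscle also ranked high in the control list, within which tags were counted and normalized separately. Of the 100 genes with the highest summed score 83 were among the first 100 of the control list, and the same held for 80 of 100 by summed length and 76 of 100 by number of peaks. Zbtb16 and Mbnl1 were first and second by summed score in both lists, and 9430078K24Rik, with 49 peaks here and 59 in the control list, was first by number in both. These are ranks within each list, with no test between them.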

How the data were processed

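ChIP-seq for H3K27ac was measured in quadriceps of detrained and control mice, 2 libraries and 1 input each. Alignment to mm10 used Bowtie (version 1.2 in the submitters' processing notes). The authors then ran HOMER, which per the file headers called broad (histone style) peaks on the pooled replicates against the input, counted tags per peak, normalized to total tags and kept peaks by DESeq2 at a fold and false discovery limit. The deposited Peak Score is a signal, pooled tags per 10000000. The deposited log2 values, 1 per library, lie on the scale of tags in the peak: the linear values of both H3K27ac libraries summed to a median of 0.951 of the pooled tags, and 0.890 in the 25% of peaks with the lowest scores. The deposited tables also hold the authors' log2 fold change, p-value and adjusted p-value of H3K27ac against input, which were not used, and 3 columns of per-sample values in the control list were not used either.

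From these, height over input (log2 difference), length (end minus start), tags per kb and sums per nearest gene were computed in Python 3 with pandas and numpy. No statistical test was run, since peaks were listed because they exceeded the input and there is 1 input. The strong-peak rule was tested on simulated data. Gene spans and promoters came from RefSeq on GRCm38.p6, where all 21 chromosomes held every peak within their length and 14089 of 14382 gene names matched. Named were the first 10 peaks by score, length and height, the first 10 genes by number and summed score, the first 4 genes of each list with every gene lacking a peak, and loci the study shows. Some genes that this rule names are not reported here. The peaks, lists and rules were chosen with earlier results of these data known. Alternatives were other fold limits, single libraries, joined peaks, tags per kb, 50 kb limits and RefSeq spans.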

Additional observations from a re-analysis of the deposited data

How the results depend on the processing

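No paired analysis was possible because no result came from a test between groups. The 3892 strong peaks became 23399 at 4-fold and 22 at 16-fold, and 4286 to 5226 when either library was left out. Spearman's rho between libraries was 0.954 per kb of peak and, in alternatives chosen after seeing the data, 0.774 in the 25% of peaks with the lowest scores and 0.955 in the 25% with the highest. The promoter share of 12.6% became 23.4% for peaks within 1 kb of a start site and 28.6% among strong peaks. The median length of 1798 bp became 1853 bp with peaks within 1 kb joined, 3554 bp among strong peaks and 2728 bp with peaks joined over the wider gap customary for super-enhancers (added after seeing the data). Of the 20 peaks with most tags 1 stayed among the first 20 by tags per kb and 1 by height over input, and 19 to 20 when either library was left out. Of the 20 genes with most peaks 2 stayed when strong peaks alone were counted, 4 with peaks within 50 kb, 8 by summed length, 4 by summed score and 7 by peaks on the RefSeq span (added after seeing the data). The 6 marked genes of the heart, liver and neuron lists, of 19, became 0 with strong peaks alone, beside 23.3% of all genes with a peak. Overlap of the 100 strongest peaks with super-enhancers became 9% with those called from H3K27ac alone, beside 5.83% of all peaks, and 60% of the first 20 genes by peak number were shared with the control list. Counting error was largest in the weakest peaks, and the effect of depth was not tested. The length of a peak has no replicate because peaks were called on pooled libraries.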

Other observations

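Genes known to respond to glucocorticoids were looked up after their values were seen, so their ranks describe these genes alone. Zbtb16 ranked 1 of 14382 genes by summed score, Klf9 ranked 6, Tsc22d3 (the leucine zipper GILZ) ranked 37 with 3515.4, Bcl6 ranked 58 with 3032.7, Ddit4 ranked 127 with 2362 and Per1 ranked 156 with 2199.5. Fkbp5, a chaperone of the glucocorticoid receptor, ranked 1711 with 668, and Pdk4, which holds back pyruvate oxidation, ranked 2583 with 486.6. They were not tested against other genes.

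Among the 25% of peaks with the highest scores, the largest excess of replicate 2 lay in a cluster at Hemk1 and Cish, the latter an inhibitor of cytokine signalling through STAT5. At chr9:107317045-107321100, named for Hemk1, the log2 values were 4.89 in the input, 7.12 in replicate 1 and 8.61 in replicate 2. Peaks named for Cish stood at 7.82 and 9.08 and at 8.18 and 9.43 in replicates 1 and 2, and 1 of the 3 Pdk4 peaks that make up its summed score stood at 7.84 and 8.73. The largest excess of replicate 1 lay at Cbx7, a Polycomb gene, with 9.09 and 8.18, and the first 10 on that side included the endothelial genes Cdh5, Robo4 and Erg. With 2 libraries, the animal and the library cannot be told apart in these differences.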
